A study of Mus musculus with 12 samples.

Results

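The gene set described here holds 46 listed mouse genes of the antioxidant system: superoxide dismutases, catalase, glutathione peroxidases, peroxiredoxins, the thioredoxin system, glutathione transferases, NADPH suppliers, iron storage genes, and the regulator NRF2 with its targets. They were chosen by name. Of the 46, 39 had a probe set of their own among the 22180 gene symbols measured, and where a gene had several, the brightest by mean over 12 arrays stood for it. Another 4 (Prdx1, Gstm5, Ftl1 and Tkt) were measured only by probe sets shared with another gene, and 3 (Prdx5, Prdx6 and G6pdx) had no probe set in the annotation used.

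The RNA came from LSK cells, the bone marrow cells that carry Sca1 and Kit but no lineage markers. The gate is mixed and holds stem cells as well as progenitors. All mice were C57BL/6, and the 4 groups of 3 arrays each combined genotype and treatment. Wild-type mice (Mll5+/+) and Mll5-/- mice, germline knockouts of Mll5 (now Kmt2e) in all tissues, were each studied without treatment (mock) and with N-acetyl-L-cysteine (NAC), a thiol compound that supplies cysteine and quenches reactive oxygen species. NAC was given at 1 g per liter of drinking water, from the mating of the Mll5+/- parents and on through pregnancy and the life of the offspring. The mice therefore met NAC before birth, and their ages are not given in the labels. The labels do not state either that each array is a mouse of its own, so the p-values reflect the scatter among the samples at hand, and that scatter may be technical.

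NRF2, encoded by Nfe2l2, is a transcription factor that KEAP1 holds in the cytoplasm and sends for degradation. When cysteines of KEAP1 are oxidised, NRF2 escapes, enters the nucleus and binds antioxidant response elements near genes for quinone reduction, glutathione conjugation, the thioredoxin system and NADPH supply. Superoxide dismutases turn superoxide into hydrogen peroxide, which catalase, glutathione peroxidases and peroxiredoxins then remove. Blood stem cells are known for low levels of reactive oxygen species, and for losing their repopulating capacity when those levels stay high.

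No member passed the test in any of 7 comparisons of genotype and NAC. Txnip, which encodes the inhibitor of thioredoxin, had the lowest adjusted p-value of the set. Its log2 signal was 0.44 lower with NAC over both genotypes (95% interval -0.65 to -0.22, 6 against 6 arrays, limma with Benjamini-Hochberg adjustment over all genes, adjusted p = 0.286), a fold of 1.36. All 6 NAC arrays lay below all 6 mock arrays. The levels of Nfe2l2, Keap1 and the target genes Nqo1 and Hmox1 overlapped between the genotypes and between the treatments when 6 arrays were set against 6. Nearly all genes did so: 0.546% of all genes separated the genotypes and 0.338% the treatments.

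Short stretches of 6 promoters are printed here because they hold the motifs through which such genes are commonly read. They come from RefSeq on GRCm38.p6, 41 of the 46 members had a promoter window of 300 bases, and all are written 5′ to 3′ on the strand of the gene. The antioxidant response element core was searched as TGACNNNGC on both strands, and the AP-1-like core TGAGTCA on both strands too. A single stretch can hold both cores, as in Prdx1. Capitals mark these cores in the first 5 sequences. In Txnip they mark a carbohydrate response element, searched on both strands as CACGNG and CNCGNG separated by 5 bases.
Srxn1, chr2:152105414-152105493, plus strand: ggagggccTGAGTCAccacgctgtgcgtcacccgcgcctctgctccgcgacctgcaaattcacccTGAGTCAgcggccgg
Prdx1, chr4:116685449-116685498, plus strand: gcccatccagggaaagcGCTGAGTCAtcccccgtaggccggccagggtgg
Txnrd1, chr10:82859096-82859145, plus strand: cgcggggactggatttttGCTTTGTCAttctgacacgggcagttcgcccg
Sod1, chr16:90220687-90220736, plus strand: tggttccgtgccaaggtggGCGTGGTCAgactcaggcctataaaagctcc
Nfe2l2, chr2:75704869-75704913, minus strand: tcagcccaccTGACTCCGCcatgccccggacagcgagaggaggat
Txnip, chr3:96557817-96557936, plus strand: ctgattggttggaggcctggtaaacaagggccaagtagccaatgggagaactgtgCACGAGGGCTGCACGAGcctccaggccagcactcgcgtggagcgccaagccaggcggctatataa

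Windows ran from 250 bases before the start to 50 after it. The antioxidant response element core was found in 9 of 41 members and in 14.0% of all genes with a window. The 9 members were G6pdx, Gstm5, Mgst1, Nfe2l2, Pgd, Prdx1, Sod1, Srxn1 and Txnrd1. In Srxn1 and Pgd it lay past the start, at positions 28 and 3, so the printed Srxn1 stretch does not hold it. TGAGTCA was found in 6 of 41 members (Glrx, Gstm5, Gstp1, Mgst2, Prdx1 and Srxn1) and in 5.95% of all genes. The carbohydrate response element was found in 1 of 41 members, Txnip, where it begins at position -85 from the start, and in 0.426% of all genes. The last pair of motifs was searched after the expression values were seen. A match describes letters in a window and is neither a bound site nor a cause of the levels below.

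Array medians lay between 2.89 and 2.96 on the log2 scale, and arrays correlated at 0.976 to 0.988 across genes. The arrays that fitted the group means least were replicate 1 of wild-type mock (weight 0.71) and replicate 1 of mutant NAC (weight 0.541). Kmt2e read 7.52 ± 0.15 (SD, n = 3) in wild-type mock and 7.27 ± 0.30 in mutant mock arrays, and the part of the gene that its probe set reads is not given, so it checks no label. Precision is limited by how many arrays there are: a member's difference between 2 groups had a median standard error of 0.181, and that of all genes 0.162. Because these are bulk samples, fewer cells of a type and less RNA per cell cannot be told apart.

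The mean signal of 37 of the 39 measured members lay above the median gene's 3.17, and the exceptions were Gpx3 and Gpx8. That level is no limit of detection, and Sod3 and Nqo1 lay only just above it. The signs of their differences were split. Between genotypes, 21 of 39 members were higher and 18 lower in the mutant over both treatments, with a median log2 difference of 0.005, against 50.7% of all genes higher. Between treatments, 18 were higher and 21 lower with NAC over both genotypes, with a median of -0.02, against 49.6% of all genes higher. The median size of the NAC difference, regardless of sign, was 0.14 for members and 0.09 for all genes, and for the genotype it was 0.108 and 0.0967.

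**Figure D1:**
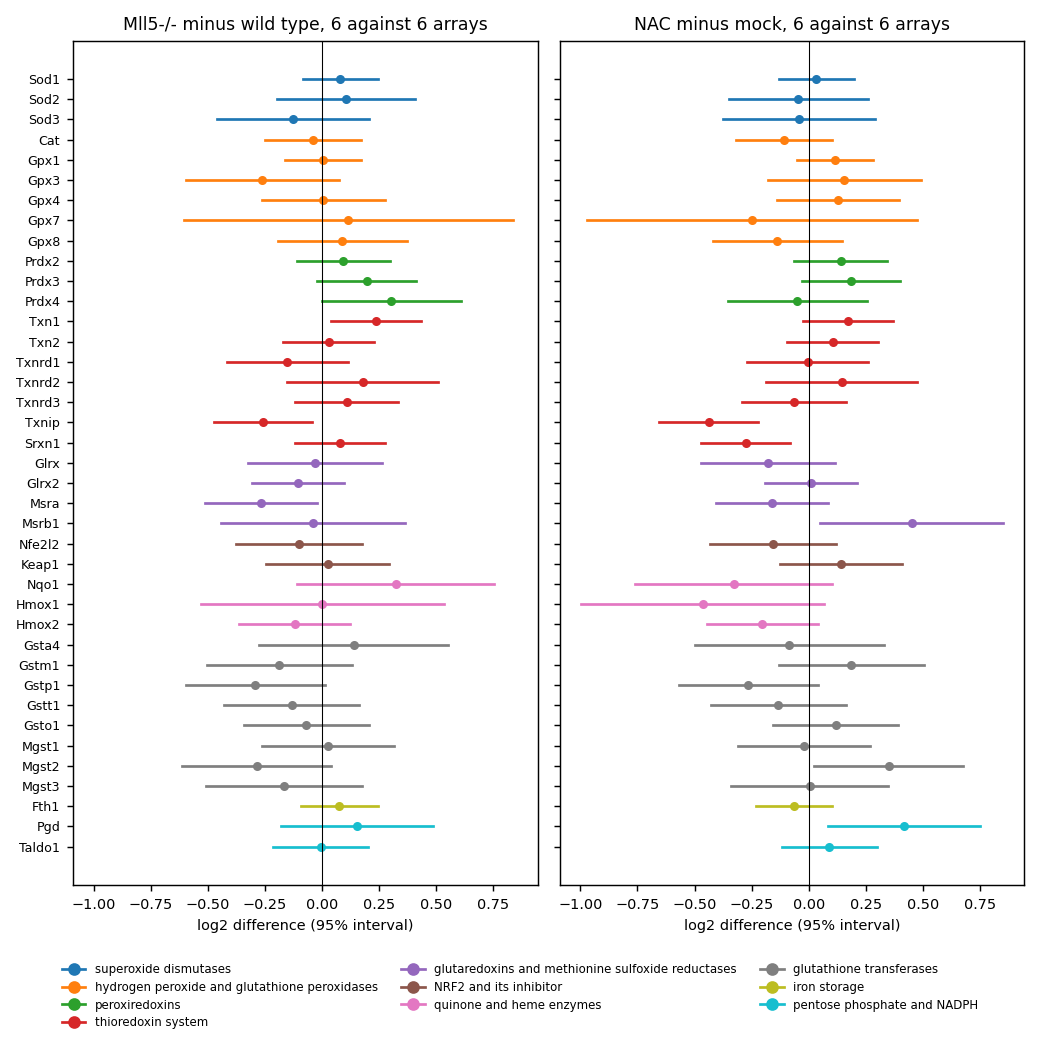
Log2 difference of each of the 39 measured members with its 95% interval, Mll5-/- minus wild type on the left and NAC minus mock on the right, 6 against 6 arrays in each. Points are estimates from the fit across all genes and colours give the role; the members scatter on both sides of 0, and Txnip lies at -0.44 on the right and -0.26 on the left.

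Counts of members at an adjusted p under 0.05 were 0 in each comparison, where few genes of any kind were called. Those genes were 0.00902% of all tested in the genotype comparison in mock, 0% in the genotype comparison with NAC, 0.00451% for NAC in the mutant and 0.00902% for NAC in wild type. They were 0% for the interaction, 0.00902% for the genotype over both treatments and 0.00451% for NAC over both genotypes. At an unadjusted p under 0.05, the genotype in mock gave 1 member (Gstp1) beside 6.63% of all genes. The genotype with NAC gave 4 (Prdx4, Mgst2, Msra and Nqo1), or 10.3%, beside 7.17%. NAC in the mutant gave 3 (Srxn1, Txnip and Hmox2), or 7.69%, beside 5.86%, and NAC in wild type gave 5 (Txnip, Mgst2, Nqo1, Gsto1 and Gstp1), or 12.8%, beside 5.92%. The interaction gave 1 (Gsto1) beside 4.21%. Over both treatments the genotype gave 4 (Txn1, Txnip, Msra and Prdx4), or 10.3%, beside 9.08%, and over both genotypes NAC gave 5 (Txnip, Srxn1, Pgd, Msrb1 and Mgst2), or 12.8%, beside 7.43%. With 39 members, these shares rest on 1 to 5 genes each.

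Members whose groups did not overlap were counted next, with 3 arrays set against 3. In mock, 4 members (10.3%) separated the genotypes, beside 11.4% of all genes: Sod1 and Srxn1 lay higher in the mutant, Txnip and Gstp1 lower. With NAC, 7 members (17.9%) did, beside 12.4%: Prdx2, Prdx4, Txn1 and Txnrd2 lay higher in the mutant and Glrx2, Msra and Mgst2 lower. NAC separated 6 members (15.4%) in the mutant, beside 10.2%, with Txn1, Msrb1 and Keap1 higher and Txnip, Srxn1 and Msra lower. In wild type it separated 5 (12.8%), beside 10.7%, with Gpx1, Txn2 and Mgst2 higher and Txnip and Gstp1 lower. Setting 6 arrays against 6, no member separated the genotypes, beside 0.546% of all genes, and 1 member (2.56%), Txnip, separated NAC from mock, beside 0.338%.

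Nfe2l2 and Keap1, the regulator and its inhibitor, differed between groups by less than the test could call. Nfe2l2 read 8.03, 8.14 and 8.01 in wild-type mock, 8.15, 8.07 and 7.74 in mutant mock, 7.81, 8.12 and 7.86 in wild-type NAC and 7.37, 7.96 and 8.08 in mutant NAC arrays. Its log2 difference was -0.10 for the genotype (95% interval -0.38 to 0.18, adjusted p = 0.856) and -0.16 for NAC (-0.43 to 0.12, adjusted p = 0.846), each averaged over the other factor. The lowest array, at 7.37, was replicate 1 of mutant NAC, which had the lowest weight. Without it the genotype difference was 0.01 and the NAC difference -0.05, so the sign for the genotype rests on that array. Keap1 read 4.33, 4.43 and 3.97 in wild-type mock, 3.93, 4.12 and 4.17 in mutant mock, 3.93, 4.55 and 4.09 in wild-type NAC and 4.50, 4.22 and 4.51 in mutant NAC arrays. In the mutant, its NAC arrays lay above its mock arrays, by a log2 difference of 0.34 (adjusted p = 0.879). A second, dimmer probe set of Keap1 gave -0.15 there, so the direction depends on the probe set.

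Among targets of NRF2, Nqo1 encodes a quinone reductase that is widely used as a readout of the pathway. It read 3.89, 3.59 and 3.66 in wild-type mock, 3.33, 3.37 and 4.34 in mutant mock, 3.59, 2.57 and 2.93 in wild-type NAC and 3.95, 3.68 and 3.49 in mutant NAC arrays. The low group was wild-type NAC, whose highest array equalled the lowest wild-type mock array. Its log2 difference was -0.68 for NAC in wild type (SE 0.28, adjusted p = 0.825) and 0.68 for the genotype with NAC (SE 0.28, adjusted p = 0.667). These comparisons share the wild-type NAC arrays, and without replicate 2 of that group the values were -0.45 and 0.45. Hmox1 encodes the inducible heme oxygenase, which degrades free heme. It read 5.52, 4.43 and 4.89 in wild-type mock, 5.09, 4.58 and 5.0 in mutant mock, 4.14, 4.29 and 4.84 in wild-type NAC and 3.81, 4.34 and 5.30 in mutant NAC arrays. The mutant NAC arrays alone spanned nearly the whole range, and the NAC difference over both genotypes had a 95% interval of -1.0 to 0.07 (adjusted p = 0.737). It was -0.15 without the pair of low-weight arrays. Hmox2, the constitutive heme oxygenase, read 6.66, 6.69 and 6.79 in wild-type mock, 7.02, 6.39 and 6.81 in mutant mock, 6.83, 6.48 and 6.66 in wild-type NAC and 6.27, 6.38 and 6.52 in mutant NAC arrays. It was 0.35 lower with NAC in the mutant (SE 0.16, adjusted p = 0.843), with groups that overlapped, and leaving out replicate 1 or 2 of mutant mock gave -0.21 or -0.525.

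**Figure D2:**
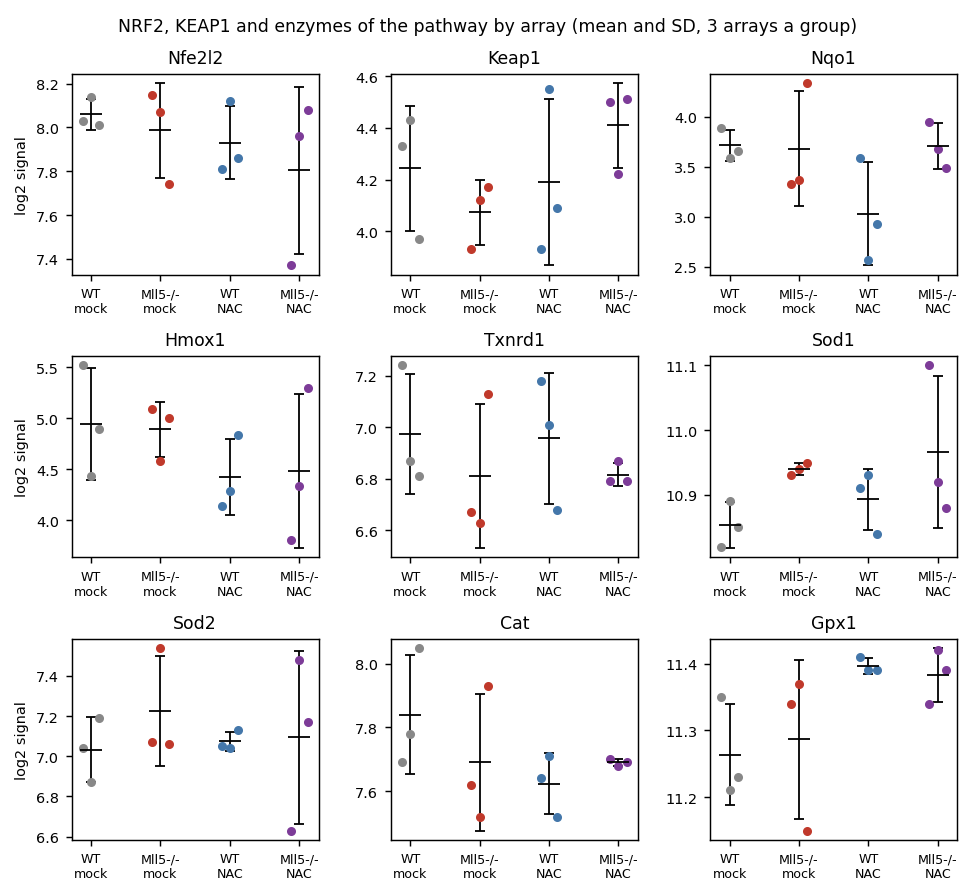
Log2 signal of Nfe2l2, Keap1, Nqo1, Hmox1, Txnrd1, Sod1, Sod2, Cat and Gpx1 in each array, by group, on axes that do not start at 0 and differ between genes. Points are arrays, the long bar is the group mean and the error bar 1 SD of 3 arrays; in most panels the groups overlap, and Hmox1 in mutant NAC runs from 3.81 to 5.30.

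Sod1, Sod2, Cat and Gpx1, superoxide and peroxide enzymes described whatever their values, had intervals that held 0. Sod1, the cytosolic superoxide dismutase, had the smallest spread of all members, an SD of 0.0722 over 12 arrays. It read 10.82, 10.89 and 10.85 in wild-type mock, 10.93, 10.94 and 10.95 in mutant mock, 10.91, 10.93 and 10.84 in wild-type NAC and 11.10, 10.92 and 10.88 in mutant NAC arrays. The mock groups did not overlap, yet over both treatments the genotype difference was 0.08 (95% interval -0.08 to 0.24), and 0.05 without replicate 1 of mutant NAC. Sod2 is the mitochondrial enzyme. It read 7.04, 6.87 and 7.19 in wild-type mock, 7.07, 7.54 and 7.06 in mutant mock, 7.05, 7.04 and 7.13 in wild-type NAC and 6.63, 7.48 and 7.17 in mutant NAC arrays. Its genotype difference was 0.10 (-0.20 to 0.41) and its NAC difference -0.05 (-0.35 to 0.26), with the widest spread in mutant NAC. Leaving out 1 array gave 0.01 to 0.22 for the genotype and -0.14 to 0.07 for NAC, the upper values without replicate 1 of mutant NAC and the lower without its replicate 2.

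Catalase splits hydrogen peroxide into water and oxygen. Cat read 7.69, 7.78 and 8.05 in wild-type mock, 7.62, 7.52 and 7.93 in mutant mock, 7.64, 7.71 and 7.52 in wild-type NAC and 7.70, 7.68 and 7.69 in mutant NAC arrays. Its differences were -0.04 for the genotype (-0.25 to 0.17) and -0.11 for NAC (-0.32 to 0.10). The genotype value ran from -0.10 without replicate 3 of mutant mock to 0.01 without replicate 3 of wild-type mock, and the NAC value was -0.05 without replicate 3 of mutant mock. Gpx1, the main cytosolic glutathione peroxidase, read 11.35, 11.21 and 11.23 in wild-type mock, 11.34, 11.37 and 11.15 in mutant mock, 11.41, 11.39 and 11.39 in wild-type NAC and 11.34, 11.42 and 11.39 in mutant NAC arrays. Its NAC difference over both genotypes was 0.12 (-0.05 to 0.28). Gpx7, an endoplasmic reticulum peroxidase, varied most of all members, from 3.71 to 5.64, and its group SDs ran from 0.35 to 0.92.

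Peroxiredoxins reduce peroxides through an active cysteine that thioredoxin then restores. All 3 measured members lay higher in the mutant over both treatments, with a median log2 difference of 0.195, and 0 passed. Prdx4, the enzyme of the secretory pathway, read 5.05, 5.58 and 5.47 in wild-type mock, 5.02, 5.44 and 5.89 in mutant mock, 5.05, 5.23 and 5.01 in wild-type NAC and 5.56, 5.59 and 5.71 in mutant NAC arrays. Within NAC the genotypes did not overlap, with a difference of 0.52 (SE 0.20, adjusted p = 0.646), while in mock they overlapped. Prdx2, abundant in blood cells, read 6.42, 6.73 and 6.45 in wild-type mock, 6.38, 6.54 and 6.65 in mutant mock, 6.57, 6.60 and 6.54 in wild-type NAC and 6.61, 6.95 and 6.74 in mutant NAC arrays. The mutant NAC group was the highest, 0.24 above mutant mock (SE 0.13, adjusted p = 0.891) and 0.15 above it without replicate 2 of mutant NAC. Prdx3, the mitochondrial member, read 7.31, 7.59 and 7.66 in wild-type mock, 7.66, 7.70 and 7.68 in mutant mock, 7.72, 7.67 and 7.62 in wild-type NAC and 7.63, 8.13 and 7.94 in mutant NAC arrays. Its genotype difference over both treatments was 0.20 (SE 0.10, adjusted p = 0.591).

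Prdx1, a target of NRF2 whose promoter stretch is printed above, was read only by probe sets it shares with other genes. The brightest, shared with Gm21399, read 9.47, 9.65 and 9.67 in wild-type mock, 9.83, 9.91 and 9.65 in mutant mock, 9.28, 9.75 and 9.53 in wild-type NAC and 9.82, 9.79 and 9.80 in mutant NAC arrays. It was 0.24 higher in the mutant over both treatments (SE 0.10, adjusted p = 0.476), with overlap in mock and none with NAC. Signal of Prdx1 and of Gm21399 cannot be told apart on it. The dimmer shared probe sets, with means of 3.83 and 3.48, gave genotype differences over both treatments of 0.01 and 0.002.

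Txnip belongs to the thioredoxin system: it binds reduced thioredoxin and blocks it, and it also restrains glucose uptake. It read 9.62, 9.36 and 9.62 in wild-type mock, 9.30, 9.26 and 9.28 in mutant mock, 9.19, 9.02 and 9.09 in wild-type NAC and 8.69, 9.14 and 8.68 in mutant NAC arrays. Wild-type mock was the highest group and mutant NAC the lowest, with means of 9.53 ± 0.15 and 8.84 ± 0.26 (SD, n = 3). The NAC difference was -0.43 in wild type (SE 0.14, adjusted p = 0.696) and -0.44 in the mutant (SE 0.14, adjusted p = 0.753). The interaction was -0.01 (95% interval -0.44 to 0.42, adjusted p = 0.999), an interval that leaves room for a difference between genotypes as large as the NAC difference itself. Leaving out 1 array moved it between -0.16 (without replicate 2 of mutant NAC) and 0.08 (without replicate 2 of wild-type mock). The genotype difference over both treatments was -0.26 (-0.47 to -0.04, adjusted p = 0.458).

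A second probe set, shared by Txnip with Gm15441, gave the same directions. It read 4.81, 4.60 and 4.73 in wild-type mock, 4.43, 4.38 and 4.50 in mutant mock, 4.57, 4.26 and 4.31 in wild-type NAC and 3.99, 4.16 and 3.81 in mutant NAC arrays. Here wild-type NAC overlapped mutant mock. The NAC difference over both genotypes was -0.39 (SE 0.09, adjusted p = 0.308), and the genotype difference over both treatments had an adjusted p of 0.305.

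**Figure D3:**
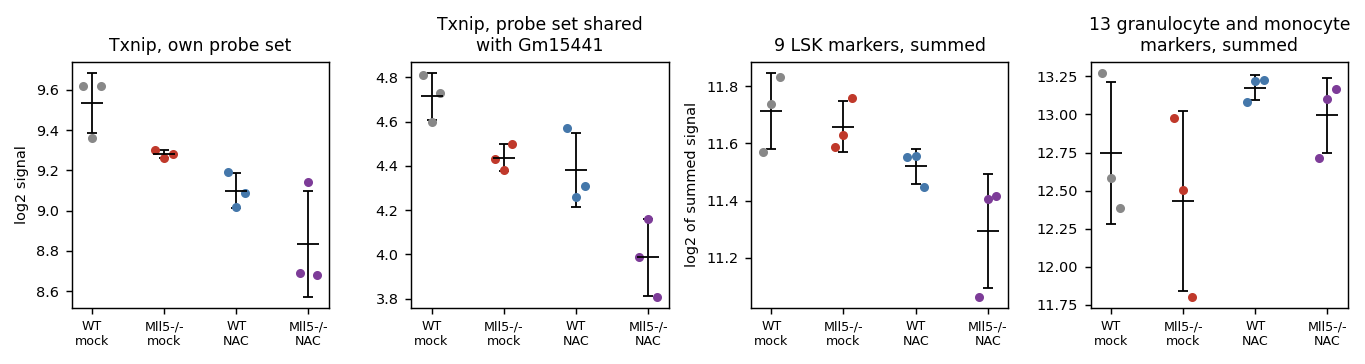
Log2 signal of Txnip in each of the 12 arrays by group, on its own probe set and on the probe set shared with Gm15441. The other panels give the log2 of the summed signal of 9 LSK markers and of 13 granulocyte and monocyte markers. Points are arrays, the long bar is the group mean and the error bar 1 SD of 3 arrays; on the own probe set mock arrays run from 9.26 to 9.62 and NAC arrays from 8.68 to 9.19.

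Marker levels also differed along the NAC contrast in which Txnip was low. Of 9 measured LSK markers, 9 lay lower with NAC over both genotypes and 8 had an unadjusted p under 0.05 (beside 7.43% of all genes), with 0 called and a median of -0.33. Their summed level, as log2, was 11.57 to 11.83 in mock and 11.06 to 11.56 with NAC, so these ranges did not overlap either. Ly6a, which encodes Sca1, was not measured. Of 13 granulocyte and monocyte markers, 10 lay higher with NAC and 7 had an unadjusted p under 0.05, with 0 called and a median of 0.57, and the summed level was 11.81 to 13.27 in mock and 12.71 to 13.22 with NAC. For lymphoid markers the sum was 10.05 to 11.15 in mock and 10.71 to 12.07 with NAC, with 8 of 11 higher, 3 at that level. For erythroid markers, without globin genes, it was 9.56 to 10.00 and 9.41 to 10.38. Of these 7 markers, 5 lay higher and 2 lower, with 3 and 1 at that level. Megakaryocyte and mast cell markers summed to 8.28 to 8.89 in mock and 8.34 to 9.43 with NAC. Of these 8, 6 lay higher and 2 lower, with 1 and 1 at that level. Of 8 immediate early genes, 6 lay lower, 2 at that level. Their sum was 10.86 to 11.55 in mock and 10.55 to 11.19 with NAC. In each list 0 were called. The part of all these markers in the Txnip result was not tested.

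Markers also differed along the genotype contrast, in which Txn1, Prdx4 and Prdx3 lay higher and Txnip and Msra lower in the mutant. The lymphoid sum separated the genotypes in both treatments: it was 10.56 to 11.15 in wild type and 10.05 to 10.21 in the mutant in mock, and 11.07 to 12.07 and 10.71 to 11.05 with NAC. This sum adds signals before the log is taken, so its brightest genes, Ighm and Nkg7, weigh most. Ighm read 10.21, 9.45 and 10.65 in wild-type mock and 8.33, 8.04 and 9.30 in mutant mock arrays. With NAC, Ighm read 11.70, 11.13 and 10.24 in wild type and 10.22, 10.17 and 9.16 in the mutant, so the groups nearly met. Ighm and the dimmer Jchain separated the genotypes in both treatments, while Nkg7 overlapped in both. Of all genes, 11.4% separated the genotypes in mock and 12.4% with NAC, and the share that did so in both was not counted. Only 6 of the 11 lymphoid genes lay above the median gene. Of 11 lymphoid markers, 10 lay lower in the mutant over both treatments and 3 had an unadjusted p under 0.05 (beside 9.08% of all genes), with 0 called. Of 8 immediate early genes, 8 lay lower, 3 at an unadjusted p under 0.05 and 0 called, and their sums overlapped, at 10.96 to 11.55 in wild type and 10.55 to 11.03 in the mutant. LSK markers were split, with 4 of 9 higher and 5 lower, of which 1 and 3 had an unadjusted p under 0.05. Of 7 erythroid markers, 6 lay higher, 2 of them at that level. Of 13 granulocyte and monocyte markers, 10 lay lower, 2 of them at that level. Among 8 megakaryocyte and mast cell markers, 2 lay higher and 0 lower at that level. In each of these lists 0 were called. The part of all these markers in the member differences was not tested.

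Srxn1 encodes sulfiredoxin, which repairs overoxidised peroxiredoxins, and its promoter stretch above holds TGAGTCA at 2 places. It read 4.91, 4.78 and 4.80 in wild-type mock, 5.05, 4.97 and 5.24 in mutant mock, 4.63, 4.74 and 4.82 in wild-type NAC and 4.76, 4.42 and 4.72 in mutant NAC arrays. Mutant mock was the highest group and overlapped no other. The log2 difference was -0.45 for NAC in the mutant (95% interval -0.73 to -0.18, adjusted p = 0.732), -0.10 for NAC in wild type and 0.26 for the genotype in mock (adjusted p = 0.786). The interaction was -0.35 (SE 0.18, adjusted p = 0.999), so the NAC differences in the genotypes were not shown to differ. In wild type the NAC difference was -0.05 without replicate 1 of wild-type NAC.

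Txn1, thioredoxin itself, lay opposite to its inhibitor. It read 7.53, 7.93 and 7.61 in wild-type mock, 7.87, 7.95 and 7.86 in mutant mock, 7.72, 7.91 and 7.86 in wild-type NAC and 8.02, 8.22 and 8.06 in mutant NAC arrays. Mutant NAC was the highest group and overlapped no other. The genotype difference over both treatments was 0.24 (0.04 to 0.43, adjusted p = 0.458). Txnrd1, the cytosolic thioredoxin reductase and a target of NRF2, read 7.24, 6.87 and 6.81 in wild-type mock, 6.67, 6.63 and 7.13 in mutant mock, 7.18, 7.01 and 6.68 in wild-type NAC and 6.79, 6.87 and 6.79 in mutant NAC arrays. All groups overlapped, with differences of -0.15 for the genotype (-0.42 to 0.11) and -0.005 for NAC (-0.27 to 0.26). Without replicate 1 of wild-type mock the genotype value was -0.085 and without replicate 3 of mutant mock -0.23, and that last array also turned the NAC value to 0.08.

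Methionine sulfoxide reductases return oxidised methionine to methionine, and glutaredoxins use glutathione to reduce protein disulfides. All 4 measured members of this class lay lower in the mutant over both treatments, with a median of -0.07, and 0 passed. Msra read 6.67, 6.11 and 6.40 in wild-type mock, 6.11, 6.32 and 6.35 in mutant mock, 6.36, 6.58 and 6.16 in wild-type NAC and 5.81, 6.06 and 6.03 in mutant NAC arrays. Mutant NAC was the lowest group, 0.40 below wild-type NAC (SE 0.16, adjusted p = 0.666). Msrb1, a selenoprotein, read 6.06, 4.97 and 5.54 in wild-type mock, 5.78, 5.66 and 4.90 in mutant mock, 5.81, 6.00 and 6.00 in wild-type NAC and 5.81, 6.15 and 5.84 in mutant NAC arrays. The mock arrays were scattered and the NAC arrays close together, and the NAC difference over both genotypes was 0.45 (SE 0.19, adjusted p = 0.612).

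Glutathione transferases join glutathione to reactive compounds, and 2 of the 8 measured members lay higher in the mutant over both treatments, with a median of -0.15 and 0 passed. Gstp1 read 10.37, 10.07 and 10.09 in wild-type mock, 9.38, 9.83 and 9.92 in mutant mock, 10.05, 9.41 and 9.75 in wild-type NAC and 9.31, 9.70 and 9.85 in mutant NAC arrays. Wild-type mock stood above the other groups, 0.47 over mutant mock (SE 0.20, adjusted p = 0.731) and 0.44 over wild-type NAC (SE 0.20, adjusted p = 0.843). Both comparisons share the wild-type mock arrays. The genotype difference was -0.30 without replicate 1 of mutant mock, and the NAC difference -0.28 without replicate 2 of wild-type NAC. The probe set that Gstp1 shares with Gstp2, a near-identical neighbour, gave a genotype difference of 0.04 in mock (adjusted p = 0.975) and a NAC difference of -0.02 in wild type, so the probe sets disagreed.

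Mgst2, a microsomal transferase, read 6.19, 5.46 and 5.99 in wild-type mock, 6.16, 5.52 and 5.92 in mutant mock, 6.54, 6.34 and 6.63 in wild-type NAC and 5.78, 5.79 and 6.26 in mutant NAC arrays. Wild-type NAC was the high group and overlapped no other, 0.62 above wild-type mock (SE 0.21, adjusted p = 0.721) and 0.41 above it without replicate 2 of wild-type mock. Gsto1, the omega class enzyme, read 7.59, 7.39 and 7.06 in wild-type mock, 7.56, 7.38 and 7.83 in mutant mock, 8.03, 7.74 and 7.56 in wild-type NAC and 7.21, 7.59 and 7.39 in mutant NAC arrays. The group mean was higher with NAC in wild type and lower with NAC in the mutant, with an interaction of -0.62 (95% interval -1.17 to -0.08, adjusted p = 0.999). Gstm1, a mu class enzyme, read 6.22, 5.55 and 5.48 in wild-type mock, 5.71, 5.25 and 5.25 in mutant mock, 5.86, 6.00 and 5.47 in wild-type NAC and 5.70, 5.70 and 5.85 in mutant NAC arrays. Its genotype difference in mock was -0.35 (SE 0.21, adjusted p = 0.827), with overlap, and -0.11 without replicate 1 of wild-type mock.

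Pgd encodes a dehydrogenase of the pentose phosphate pathway that makes NADPH, the reductant that glutathione and thioredoxin reductases draw on. It read 7.69, 7.04 and 7.19 in wild-type mock, 7.73, 7.43 and 7.30 in mutant mock, 7.68, 7.67 and 7.90 in wild-type NAC and 7.39, 8.04 and 8.20 in mutant NAC arrays. The NAC difference over both genotypes was 0.42 (95% interval 0.08 to 0.75, adjusted p = 0.547), and the low-weight arrays, at 7.69 and 7.39, ran against it. Without both the difference was 0.63. Taldo1, a later enzyme of the pathway, ranged from 7.31 to 7.82. Fth1, the ferritin heavy chain that stores iron, ranged from 10.76 to 11.10.

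**Figure D4:**
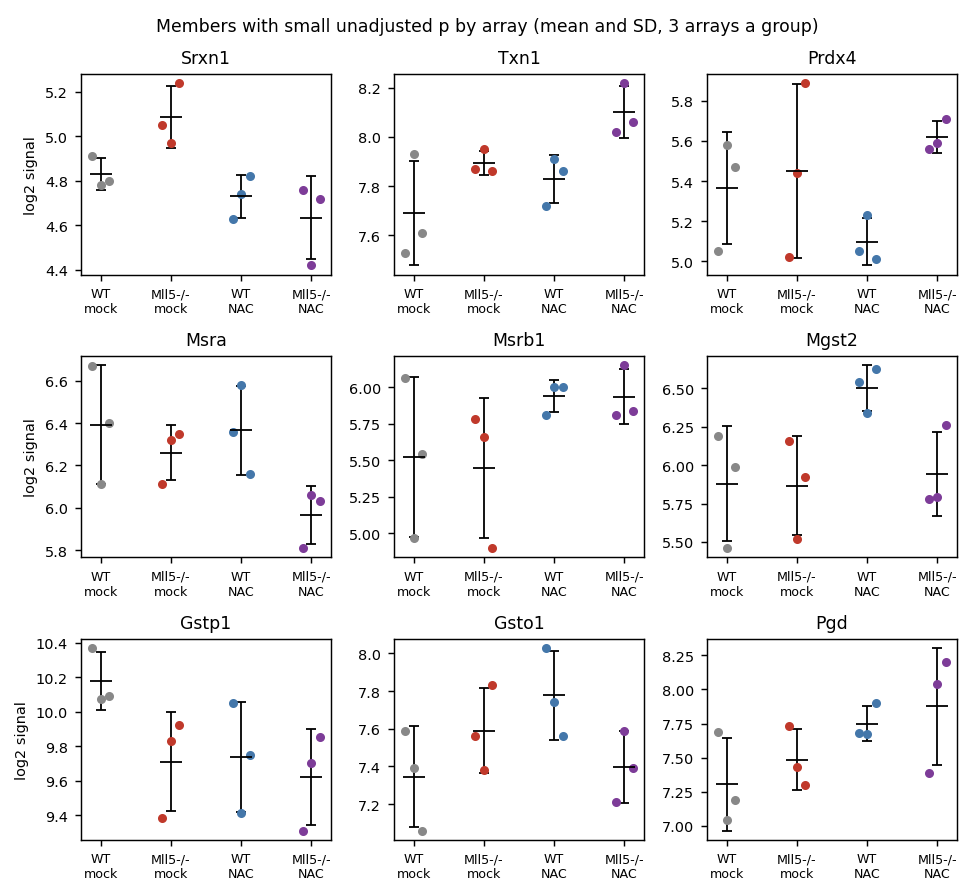
Log2 signal of Srxn1, Txn1, Prdx4, Msra, Msrb1, Mgst2, Gstp1, Gsto1 and Pgd in each array, by group, on axes that do not start at 0 and differ between genes. Points are arrays, the long bar is the group mean and the error bar 1 SD of 3 arrays; these members were picked for small unadjusted p-values, and none passed after adjustment over all genes.

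The remaining 16 measured members had 0 unadjusted p-values under 0.05 in the 7 comparisons. Their log2 differences ran from -0.62 to 0.75, both from Gpx7, and their lowest adjusted p was 0.64. Over the 12 arrays, Sod3 ranged from 2.92 to 3.92, Gpx3 from 2.24 to 3.17, Gpx4 from 4.02 to 4.75 and Gpx8 from 2.38 to 3.28. In the thioredoxin and glutaredoxin systems, Txn2 ranged from 6.47 to 6.97, Txnrd2 from 4.09 to 5.12, Txnrd3 from 3.66 to 4.30, Glrx from 5.55 to 6.30 and Glrx2 from 4.02 to 4.59. Among the transferases, Gsta4 ranged from 4.15 to 5.12, Gstt1 from 3.45 to 4.28, Mgst1 from 5.40 to 6.32 and Mgst3 from 4.78 to 5.73.

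On shared probe sets, Gstm5 gave a genotype difference of -0.03 and a NAC difference of 0.09, each averaged over the other factor. Tkt, the transketolase of the pentose phosphate pathway, gave -0.01 and 0.06. Ftl1, the ferritin light chain, was read by 6 shared probe sets, with genotype differences of -0.19 to 0.06 and NAC differences of -0.04 to 0.20. Both -0.19 and 0.20 came from the dimmest of them, with a mean of 3.52. The remaining sets, with means of 10.49 to 11.25, gave -0.12 to 0.06 and -0.04 to 0.05.

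Other genes were taken from a list of partners, regulators and further targets of NRF2. The list also held related redox genes, such as sestrins, glutaredoxins and methionine sulfoxide reductases, so it is broader than the NRF2 pathway. Of 45 listed, 43 were measured, and 0 passed in each of the 7 comparisons. Over both treatments, 5 lay higher and 2 lower in the mutant at an unadjusted p under 0.05, or 16.3% beside 9.08% of all genes, with a lowest adjusted p of 0.185. Over both genotypes, 3 lay higher and 5 lower with NAC, or 18.6% beside 7.43%, with a lowest adjusted p of 0.482.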

How the data were processed

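LSK cells were sorted from mouse bone marrow, and their RNA was labelled and hybridised to 12 arrays. The values deposited by the authors are log2 signals. The submitters' processing notes name RMA, which corrects background, scales arrays by quantiles and gives 1 value per probe set, and Affymetrix Power Tools. The version of either tool was not given in the sources used here. The range of the values, 0.74 to 13.23, set the base of the logarithm. Of 41345 probe sets, 25335 were annotated, 23521 with 1 symbol and 1814 with several, and 16010 were unnamed. Of those with 1 symbol, 23328 matched the RefSeq table of GRCm38.p6, with 0 symbols updated, and the brightest per symbol was kept. The build of the array annotation is not given.

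All arrays entered 1 limma model (version 3.58.1, R 4.3.3) of the group means, with Benjamini-Hochberg adjustment over 22180 symbols at 0.05 in each of 7 comparisons. The steps were tested on simulated data. Members and lists were chosen with earlier results of these data known. Lists covered other NRF2 pathway and redox genes, immediate early genes, and markers of LSK, erythroid, granulocyte and monocyte, lymphoid, and megakaryocyte and mast cells. Values per array are given for members past the threshold, the 3 higher and 3 lower with the smallest unadjusted p in each comparison, and, whatever their values, Nfe2l2, Keap1, Nqo1, Hmox1, Txnip, Sod1, Sod2, Cat, Gpx1, Prdx1 and Txnrd1. Alternatives were array weights, leaving out genes at or under the median level, centring, a second quantile normalization, robust variance with a trend, averaging the probe sets of a symbol, a replicate block, only the compared groups, and leaving out each array. Leaving out both low-weight arrays, shared and dimmer probe sets, and the last pair of motifs were added after the data were seen. Plots were made in Python 3.11.15 with matplotlib 3.10.9.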

Additional observations from a re-analysis of the deposited data

How the results depend on the processing

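Members called were 0 under every alternative run, and the median member difference lay between -0.06 and 0.11 in all 144 recomputed values. The Txnip difference with NAC over both genotypes ran from -0.51 to -0.38, with adjusted p from 0.158 to 0.51, and that of Srxn1 with NAC in the mutant from -0.52 to -0.35, with adjusted p from 0.479 to 0.993. Adjusted p under the alternatives was kept only for the 3 higher and 3 lower members with the smallest unadjusted p in each comparison. The lowest of these was 0.149, for Pgd with NAC over both genotypes. The count of all genes called, which was 0 to 2 as reported, moved more. With the replicate block it was 1 for the genotype in mock and 1 for the genotype over both treatments. With only the compared groups it was 1 for the genotype in mock, 1 for the genotype with NAC and 1 for NAC in wild type. With array weights it was 4 for the genotype with NAC, 2 for NAC in the mutant and 4 for the genotype over both treatments. The filter at the median level gave 2 for the genotype with NAC, and a fresh quantile normalization 2 for NAC in the mutant. Without both low-weight arrays it was 0 for the genotype in mock, 0 for NAC in the mutant, 4 for the genotype over both treatments and 3 for NAC over both genotypes. Leaving out each array in turn gave 1 to 4 for the genotype in mock, 0 to 3 for the genotype with NAC, 0 to 2 for NAC in the mutant, 1 to 5 for NAC in wild type, 0 to 2 for the interaction, 1 to 7 for the genotype over both treatments and 1 to 4 for NAC over both genotypes. The cause was not tested. Equal replicate numbers showed no sign of a pairing in the values. Deviations of same-numbered arrays correlated at -0.0572 to 0.0564 over 18 pairs, and those of differently numbered arrays at -0.0783 to 0.0715. Such correlations over all genes cannot exclude a pairing. With 3 arrays a group, a member difference between 2 groups carried a median standard error of 0.181. Large differences did not pass either, such as -0.68 for Nqo1 and 0.62 for Mgst2 with NAC in wild type. Their own standard errors, 0.28 and 0.21, were above that median. Of 161 differences of described members, 124 moved by over 1.5 times or turned in sign without some array, and 54 turned in sign.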

Other observations

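Of the 6 probe sets that read Ftl1 together with other genes, 2 held identical values in the deposited table and count as a single reading.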
